A study of Mus musculus with 22 samples.

Results

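The genes Dbp, Tef and Hlf, which encode the PAR bZIP transcription factors, and Nfil3, which encodes their antagonist, were followed through the day in mouse liver. They were chosen by the gene symbol in the array annotation, and each had 1 of the 22206 features of the array, which name 19505 genes. In RefSeq (GRCm38.p6) Dbp lies at chr7:45705100-45710203, Tef at chr15:81802673-81826863, Hlf at chr11:90336535-90390917 and Nfil3 at chr13:52967209-52982878. All livers came from male adiponectin-knockout mice (B6;129-Adipoqtm1Chan/J on C57BL/6J), which lack the adipocyte hormone adiponectin in the whole body. The mice were 3 to 8 months old, ate chow freely and were kept with lights on for 12 h a day. Livers were taken at zeitgeber time (ZT, hours after lights on) 2 (n = 4), 6 (n = 3), 10 (n = 4), 14 (n = 4), 18 (n = 3) and 22 (n = 4). Wild-type mice were not analysed here, so every value describes the knockout and no effect of the knockout can be read from it.

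PAR bZIP factors carry a domain rich in proline and acidic amino acids next to a basic leucine zipper. As homodimers or heterodimers they bind the D-box, a short DNA element, and activate the gene beside it. NFIL3, also called E4BP4, binds the same element without a PAR domain and represses. The clock activators CLOCK and BMAL1 (the product of Arntl) drive Dbp through E-boxes, while REV-ERB repressors and ROR activators compete at ROR elements that control Nfil3. In liver the PAR bZIP factors together govern genes of drug and bile acid metabolism, and mice that lack all of them clear drugs poorly.

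Promoter windows from 250 bases before to 50 after each start listed in RefSeq (GRCm38.p6) were searched on both strands for 4 elements. The starts used for Nfil3 and Dbp lay inside the gene spans given above, not at their edges. The elements were the E-box CACGTG, a variant E-box CACGTT, the D-box TTANNTAA, and the ROR element TAGGTCA, which contains the shorter core AGGTCA. Windows of 5 genes are printed 5′ to 3′ on the gene's strand, with matches in capitals. Tef and Nfil3 are shown as the members with a match, Per3 and Ciart as the genes outside the 4 members whose levels were most like Tef, and Arntl as a gene whose levels ran opposite to Dbp. They lie at chr15:81802423-81802722 (plus strand) for Tef, chr13:52980990-52981289 (minus strand) for Nfil3, chr4:151044616-151044915 (minus strand) for Per3, chr3:95882179-95882478 (minus strand) for Ciart and chr7:113207261-113207560 (plus strand) for Arntl.
Tef: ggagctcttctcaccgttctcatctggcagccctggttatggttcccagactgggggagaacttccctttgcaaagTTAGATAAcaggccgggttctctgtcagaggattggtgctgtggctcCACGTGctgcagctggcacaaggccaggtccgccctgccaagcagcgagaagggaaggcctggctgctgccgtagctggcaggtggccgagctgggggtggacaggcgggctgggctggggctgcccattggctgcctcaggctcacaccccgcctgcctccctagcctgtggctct
Nfil3: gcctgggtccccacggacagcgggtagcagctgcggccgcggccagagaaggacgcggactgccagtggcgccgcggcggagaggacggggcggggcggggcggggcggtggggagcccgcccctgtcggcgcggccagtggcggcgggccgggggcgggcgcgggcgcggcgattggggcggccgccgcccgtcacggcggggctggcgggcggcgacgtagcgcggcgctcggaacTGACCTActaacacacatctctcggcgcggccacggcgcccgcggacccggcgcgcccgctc
Per3: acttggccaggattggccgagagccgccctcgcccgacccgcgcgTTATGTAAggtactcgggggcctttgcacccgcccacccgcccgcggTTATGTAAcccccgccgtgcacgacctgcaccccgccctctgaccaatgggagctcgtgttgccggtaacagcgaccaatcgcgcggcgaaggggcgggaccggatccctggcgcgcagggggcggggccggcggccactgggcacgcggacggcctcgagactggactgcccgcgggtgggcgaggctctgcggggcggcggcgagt
Ciart: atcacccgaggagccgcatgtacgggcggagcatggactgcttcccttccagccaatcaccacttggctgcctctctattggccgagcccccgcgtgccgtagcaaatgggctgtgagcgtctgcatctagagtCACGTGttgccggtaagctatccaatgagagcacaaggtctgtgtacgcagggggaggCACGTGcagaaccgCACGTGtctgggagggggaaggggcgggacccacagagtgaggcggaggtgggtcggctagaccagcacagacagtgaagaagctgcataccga
Arntl: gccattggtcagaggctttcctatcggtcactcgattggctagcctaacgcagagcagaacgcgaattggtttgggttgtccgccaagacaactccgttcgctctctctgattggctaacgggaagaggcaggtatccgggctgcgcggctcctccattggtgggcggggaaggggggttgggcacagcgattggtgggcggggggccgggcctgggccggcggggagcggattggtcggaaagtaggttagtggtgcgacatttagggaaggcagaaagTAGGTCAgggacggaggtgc

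The Tef window held an E-box at -127 and a D-box at -174, counted in bases from the start, and the window of a second Tef start, at chr15:81811164-81811463, held an E-box at -138. Nfil3 held a ROR element at -12, read on the opposite strand (TGACCTA). Arntl held one at 31 in the window printed, which was chosen for that match. The window of its other start, at chr7:113207215-113207514, held none of the elements. Per3 held D-boxes at -205 and -158, and Ciart held E-boxes at -116, -58 and -44. The windows of Dbp and Hlf held none of these letters, from which nothing follows about the factors. Over 32851 windows of the same length, the E-box was found in 7.15%, the D-box in 6.0% and the ROR element in 2.61%. A match describes the letters only and is not a shown binding site.

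Dbp, the PAR bZIP gene of largest daily swing, had the largest 24 h amplitude of all features. Its log2 expression value in the single livers was 6.91, 8.43, 6.72 and 7.56 at ZT2, then 14.70, 14.09 and 12.20 at ZT6, and 15.72, 15.95, 16.43 and 15.89 at ZT10. After lights off it was 13.27, 14.02, 12.97 and 12.89 at ZT14, then 11.13, 11.18 and 11.07 at ZT18, and 8.13, 7.79, 8.14 and 7.43 at ZT22. All ZT10 livers lay above every other liver, and 13 of the 15 pairs of times did not overlap; the exceptions were ZT6 with ZT14 and ZT22 with ZT2. The fitted 24 h amplitude, the distance from the daily mean to the peak, was 4.22 ± 0.28 (SE) log2 units, which ranked 1 among all features and spanned 348-fold from trough to peak. The fitted peak fell at ZT10.9 ± 0.271 h (SE; limma F test of the 24 h terms, adjusted p = 1.86e-10).

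Tef, a PAR bZIP gene of the same group with a smaller swing, had values of 3.47, 3.80, 3.88 and 3.86 at ZT2, then 6.22, 4.35 and 4.84 at ZT6, and 5.83, 5.32, 6.38 and 6.03 at ZT10. At ZT14 the livers gave 4.88, 5.89, 5.32 and 5.35, at ZT18 4.82, 5.07 and 5.20, and at ZT22 3.5, 3.73, 3.62 and 4.12. The livers of ZT2 and ZT22 lay below all livers of the other times, and among the times between only ZT10 and ZT18 did not overlap. In 5 of the 22 arrays, all at ZT2 or ZT22, Tef was at or below the lower quartile of its array, where levels cannot be told from background and the size of the swing is uncertain. The amplitude was 1.09 ± 0.13 log2 units (4.55-fold from trough to peak) with a peak at ZT11.5 ± 0.486 h (limma, adjusted p = 4.97e-06).

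Hlf, the third PAR bZIP gene, swung least and reached its peak later. Its values were 8.30, 8.07, 7.85 and 8.30 at ZT2, then 8.27, 7.47 and 8.24 at ZT6, and 9.38, 9.08, 9.33 and 9.27 at ZT10. They were 9.46, 9.20, 9.92 and 8.88 at ZT14, then 8.56, 8.80 and 9.22 at ZT18, and 8.46, 8.67, 8.71 and 8.85 at ZT22. The livers of ZT10 lay above those of ZT2, ZT6 and ZT22, while ZT10, ZT14 and ZT18 overlapped. The amplitude was 0.66 ± 0.10 log2 units (2.48-fold) with a peak at ZT14.4 ± 0.625 h (limma, adjusted p = 0.000388).

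Nfil3, the D-box repressor, ran opposite to Dbp. Its values were 9.40, 9.29, 9.54 and 8.96 at ZT2, then 7.15, 6.92 and 7.34 at ZT6, and 6.96, 7.03, 6.64 and 7.05 at ZT10. They were 8.0, 7.15, 7.48 and 7.65 at ZT14, then 7.92, 8.58 and 8.01 at ZT18, and 9.10, 8.71, 8.58 and 9.30 at ZT22. The livers of ZT2 and ZT22 were high and those of ZT6 and ZT10 low with no overlap between these pairs of times, and neighbours in the order of means overlapped or touched. The amplitude was 1.14 ± 0.12 log2 units (4.84-fold) with a peak at ZT22.8 ± 0.441 h (limma, adjusted p = 1.25e-06).

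**Figure D1:**
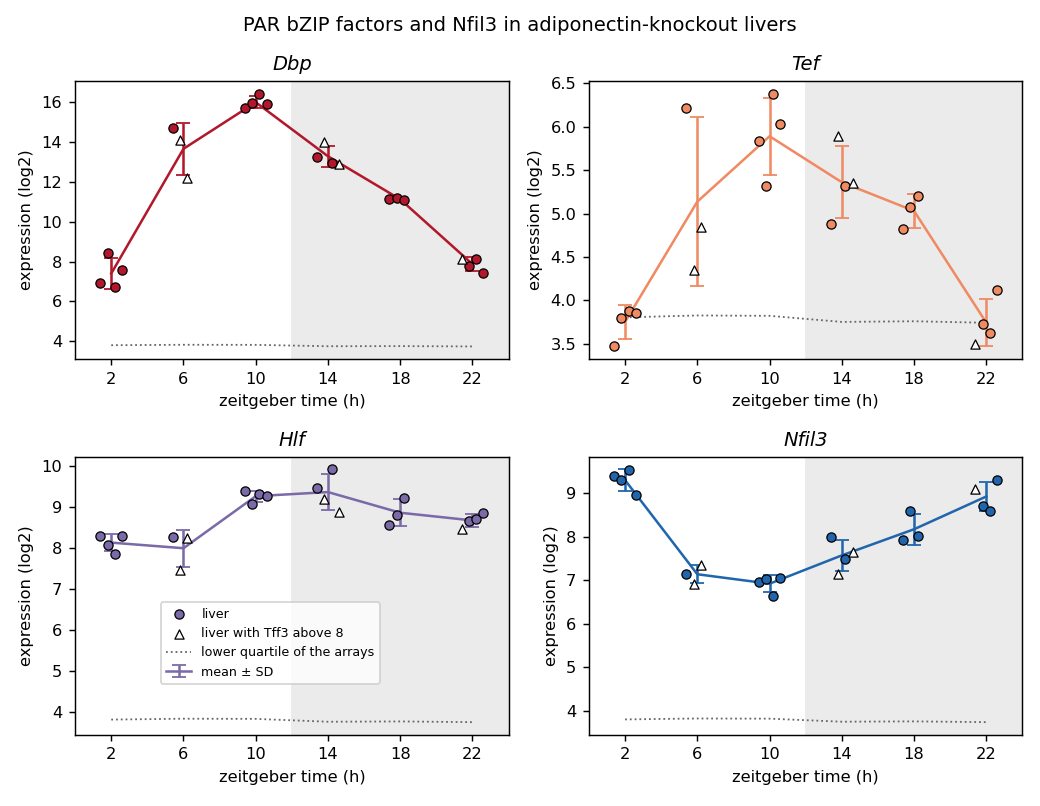
Log2 expression of Dbp, Tef, Hlf and Nfil3 against zeitgeber time (h), with 1 point per liver, lines through the time means and bars of 1 SD; shading marks the dark and triangles mark the 5 livers with Tff3 above 8. Dbp and Tef were highest at ZT10 and Nfil3 was lowest there, and Tef lay at or below the lower quartile of the array in 5 of the 8 livers of ZT2 and ZT22.

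All 4 members were called for a 24 h rhythm, against 7.62% of all features, and all 4 for any difference among the 6 time means, against 6.14%. A 12 h component beside the 24 h curve was called for Dbp, with an amplitude of 1.24 ± 0.17 log2 units (limma, adjusted p = 0.00865), against 0.018% of features. Its mean climbed over the 8 h between ZT2 and ZT10 and declined over the 12 h between ZT10 and ZT22. The 12 h terms of Tef (0.30 ± 0.13), Hlf (0.32 ± 0.10) and Nfil3 (0.46 ± 0.10) were not called. The 24 h curve took up 89.9% of the variance of Dbp, 76.2% for Tef, 65.8% for Hlf and 79.4% for Nfil3.

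Tef peaked 0.62 h after Dbp, with a 95% interval from -0.333 to 1.57 h, so their order was not resolved. Hlf peaked 3.53 h after Dbp (interval 1.95 to 5.12 h) and 2.92 h after Tef (1.22 to 4.61 h). Nfil3 peaked 11.9 h after Dbp (11.2 to 12.5 h), 11.2 h after Tef and 8.33 h after Hlf (6.53 to 10.1 h). Nfil3 was therefore near opposite phase to Dbp, and its distance from Hlf was shorter. Without the 5 livers of high Tff3, described below, Tef followed Dbp by 0.12 h, Hlf followed Dbp by 2.65 h, and Nfil3 followed Dbp by 12.2 h and Hlf by 9.55 h.

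**Figure D2:**
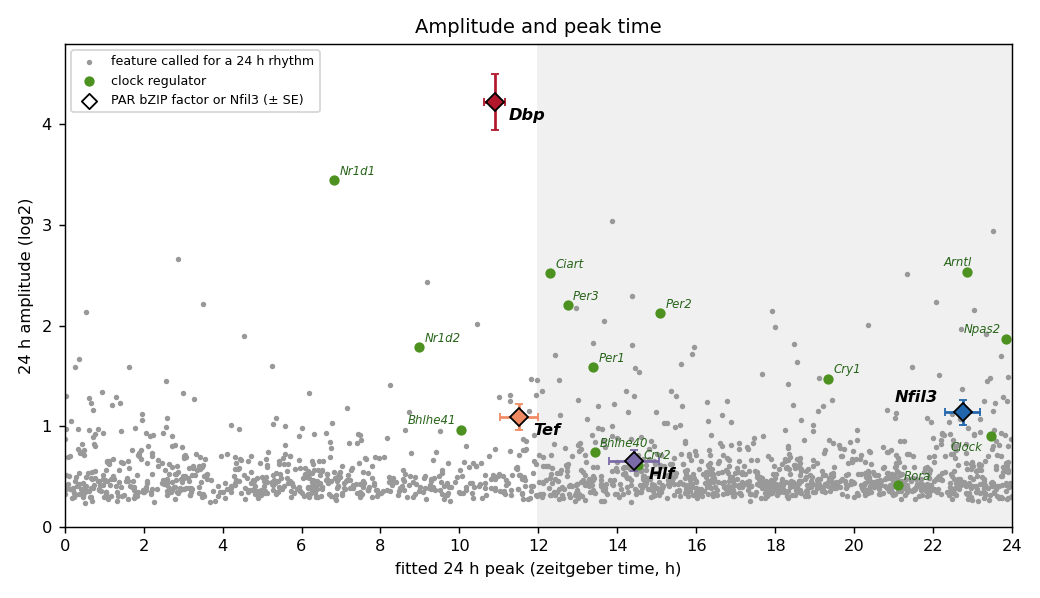
Fitted 24 h amplitude (log2) against fitted peak (zeitgeber time, h) for the features called for a 24 h rhythm (grey), clock regulators (green) and the 4 members (diamonds, bars of 1 SE); shading marks the dark. Dbp has the largest amplitude of all, 4.22 at ZT10.9, while Tef, Hlf and Nfil3 lie between 0.66 and 1.14.

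From ZT2 to ZT6 the members moved apart. Dbp was 6.26 ± 0.42 log2 units higher at ZT6 than at ZT2 (SE, 76.5-fold; limma, adjusted p = 3.35e-09), and Nfil3 fell by 2.16 ± 0.23 (4.47-fold; adjusted p = 1.28e-05), in a comparison where 0.392% of features were called. Tef (1.38 ± 0.32) and Hlf (-0.14 ± 0.23) did not pass the test. Without the livers of high Tff3, which leaves 1 liver at ZT6, Tef differed by 2.47. Tef was called without any 1 of ZT6b (1.78; limma, adjusted p = 0.0197), ZT10b, ZT10c, ZT14a or ZT14b (highest adjusted p 0.0483). With each array left out its difference lay between 0.84 and 1.78.

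From ZT6 to ZT10 Dbp rose by 2.33 ± 0.42 (5.04-fold; limma, adjusted p = 0.00566) and Hlf rose by 1.27 ± 0.23 (2.41-fold; adjusted p = 0.00574), where 0.639% of features were called. Both rest on the livers at ZT6. The call for Dbp was lost without ZT6c (1.60; limma, adjusted p = 0.0624) and the call for Hlf without ZT6b (1.01, adjusted p = 0.0801). Both were lost without the high-Tff3 livers (1.30 and 0.995), which leaves 1 liver at ZT6. Tef, at 0.75 ± 0.32, did not pass, but was called without ZT6a (1.29, adjusted p = 0.0166). The number of features called in this comparison, 142, ran from 62 to 315 with 1 array left out.

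From ZT10, still in the light, to ZT22 only Dbp passed the tests between neighbouring times. It fell by 2.71 ± 0.39 at ZT14 against ZT10 (limma, adjusted p = 0.000308; 1.72% of features called), it fell by 2.16 ± 0.42 at ZT18 against ZT14 (adjusted p = 0.016; 0.545%) and it fell by 3.25 ± 0.42 at ZT22 against ZT18 (adjusted p = 0.00038; 0.0811%). The middle step was not called with any 1 of ZT14b, ZT18a, ZT18b or ZT18c left out (highest adjusted p 0.0949). Tef differed by -1.29 ± 0.32 between ZT22 and ZT18 without passing, but was called without ZT6a (limma, adjusted p = 0.0257). From ZT22 to ZT2 no member passed, where 0.131% of features were called.

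**Figure D3:**
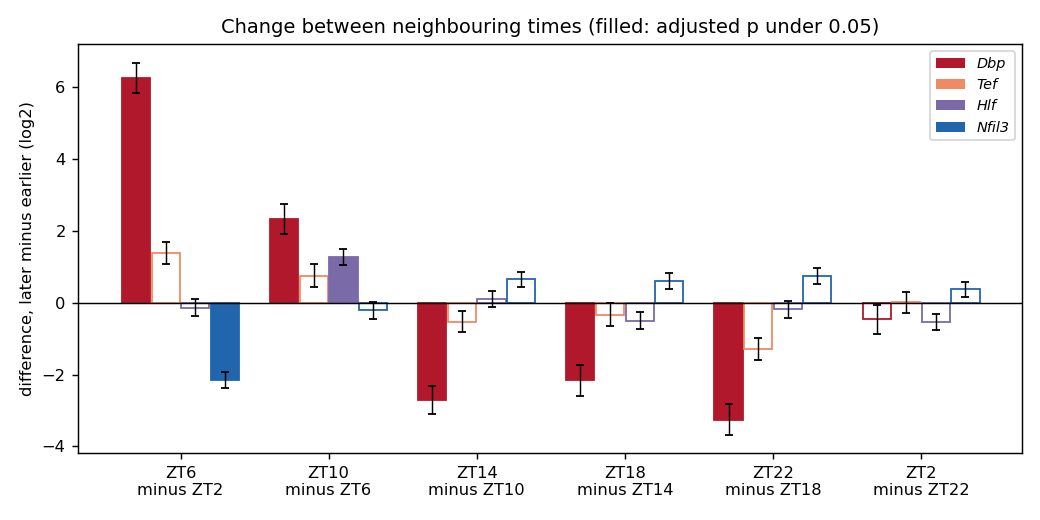
Change in log2 expression between neighbouring times, later minus earlier, for each member, drawn as bars with whiskers of 1 SE, filled where the adjusted p was under 0.05. Dbp passed the tests in 5 of 6 steps, Nfil3 in 1, Hlf in 1 and Tef in none.

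Between times 12 h apart, all 4 members differed at ZT14 from ZT2, where 4.27% of features were called. Dbp (58.99-fold), Tef (3.05-fold) and Hlf (2.35-fold) were higher at ZT14, as were 2.2% of features, and Nfil3 was 3.31-fold lower, as were 2.07%. At ZT22 against ZT10, where 3.3% of features were called, Dbp was 279-fold lower, Tef 4.43-fold lower (1.15% of features lower) and Nfil3 4.01-fold higher (2.15% higher). Hlf differed by -0.59 ± 0.22 there without passing. At ZT18 against ZT6 (1.13% of features) Dbp fell by 2.54 ± 0.45 and Nfil3 rose by 1.03 ± 0.24. The call of Nfil3 was lost without ZT6b, ZT18a, ZT18b or ZT18c (adjusted p up to 0.205 in limma). It was also lost with the replicate block (limma, adjusted p = 0.0532) and with both times fitted alone (adjusted p = 0.0986). Without the high-Tff3 livers, which leaves 1 liver at ZT6, it was lost as well. The call of Dbp was lost with both times fitted alone (limma, adjusted p = 0.06).

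Differences between members within each liver were set against one another with exact two-sided permutation tests over the 4 livers a time, where the smallest p possible is 0.0286. Of 12 comparisons, 11 reached that p (adjusted p = 0.0312). From ZT2 to ZT14 Dbp gained 4.28 ± 0.42 log2 units more than Tef and 4.65 ± 0.53 more than Hlf. Since Tef was at or below the lower quartile in 5 of the 8 livers of ZT2 and ZT22, its differences from other members at those times are uncertain in size. Tef and Hlf differed by 0.37 ± 0.39 over that span (exact p = 0.371), but from ZT10 to ZT22 the change of Tef minus that of Hlf was -1.56 ± 0.19 (exact p = 0.0286).

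Tff3, a trefoil peptide gene of mucous and bile duct cells, was high in 5 livers, between 10.35 and 13.63 (ZT6b, ZT6c, ZT14b, ZT14d and ZT22a), against 2.31 to 4.73 in the other 17. Hlf was lower in them than in every other liver of their time, though few livers were compared. At ZT6 Hlf was at most 8.24 in 2 livers against 8.27 in 1. At ZT14 2 livers stood against 2, and at ZT22 1 against 3. The share of all features split in this way was not counted. Nfil3 overlapped at all 3 times, Dbp was lower at ZT6 alone, and Tef was lower at ZT6 and ZT22 and higher at ZT14. Among the other bile duct markers, Krt7 ran from 5.27 to 6.11 over all arrays and Epcam from 3.84 to 5.19. Krt19 ran from 3.2 to 6.12 and Sox9 from 5.01 to 8.46. These ranges were not split by Tff3. What the high Tff3 reflects, and its part in the values of the members, was not tested.

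At ZT6 the SD was 1.30 for Dbp and 0.97 for Tef, the highest of the 6 times for both, but 0.453 for Hlf, near its 0.44 at ZT14, and 0.21 for Nfil3, below its 0.358 at ZT18. Among genes picked after their values were seen, ZT6a had the highest Dbp (14.70), Tef (6.22), Per3 (9.83) and Ciart (7.06) and the lowest Arntl (7.02). ZT6b and ZT6c had 14.09 and 12.20 for Dbp, 7.89 and 7.43 for Per3, and 9.01 and 8.01 for Arntl. ZT6a was nearer than ZT6b and ZT6c to the ZT10 means of Per3 and Arntl, 10.36 and 5.3. Its Nfil3 value, 7.15, lay between the 6.92 and 7.34 of ZT6b and ZT6c. As ZT6a was also the only ZT6 liver without high Tff3, these traits cannot be told apart at ZT6. The cause of the spread was not tested.

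All 11 E-box regulators of the PAR genes were called for a 24 h rhythm, as were the 3 measured ROR-element regulators described here, against 7.62% of all features and 13.6% of those brighter than the median. Their median amplitudes were 1.59 and 1.78 log2 units, against 0.156 over all features. Arntl peaked at ZT22.9, Clock at ZT23.5 and Npas2 at ZT23.9, near Nfil3. The repressors Per1, Per2 and Cry1 peaked at ZT13.4, ZT15.1 and ZT19.3. The REV-ERB genes Nr1d1 and Nr1d2 peaked at ZT6.83 and ZT8.99, and Rora at ZT21.1. Rora was called on 1 of its 3 features, the brightest, and not without the high-Tff3 livers (limma, adjusted p = 0.052).

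Among 11 measured genes of drug and bile acid metabolism tied to the PAR bZIP factors, 5 were called for a 24 h rhythm. Of all features 7.62% were called, and of those brighter than the median 13.6%. At ZT14 5 of the 11 were higher than at ZT2, against 2.2% of all features. The median amplitude of the list, that of Abcb1a, was 0.75 log2 units, against 0.156 over all features, faint ones included. Some uncalled genes had amplitudes near their SE, such as Cyp2b10 (0.592 ± 0.502) and Cyp2c37 (0.529 ± 0.351). Cyp2a5 and Cyp2a4, near-identical coumarin and steroid hydroxylases whose probes may not separate them, spanned 4.19-fold and 9.39-fold with peaks at ZT15.2 and ZT15.6. Cyp7a1, whose enzyme sets the pace of bile acid synthesis, spanned 8.45-fold with a peak at ZT14.6, and Alas1, the first enzyme of heme synthesis, 6.53-fold at ZT12.1. These 4 had the lowest adjusted p of the list. Their fitted peaks lay later than that of Dbp (ZT10.9 ± 0.271 h, SE), with Alas1 nearest (± 0.713 h), a difference that was not tested. The uncalled genes of the list had fitted peaks from ZT3.36 ± 3.04 h (Cyp2b9) to ZT21.4 ± 2.6 h (Cyp2c54). Without the high-Tff3 livers 6 were called, against 5.88% of all features: Nr1i3 and Cyp2b10 gained the call and Abcb1a lost it (limma, adjusted p = 0.11).

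Of 7 genes on the route from PAR bZIP factors to PPARA, the fatty acid receptor, 4 were called. The shares called were 7.62% of all features and 13.6% of those brighter than the median. The median amplitude, that of the uncalled Cyp4a10, was 0.69 log2 units. Acot3 and Acot4, acyl-CoA thioesterases, peaked at ZT15.9 (10.8-fold) and ZT16.4 (2.40-fold), and Ppara at ZT12.3 (2.68-fold). Cyp4a14, a fatty acid hydroxylase and PPARA target, peaked near the opposite time, at ZT23.9 (5.65-fold). Against 7.62% of all features, 3 of 4 measured genes tied to Nfil3 were called: Cyp7a1, Per1 and Per2, already counted in the lists above. Fgf21 was not, with a mean of 3.86 near the lower quartiles of the arrays (3.67 to 3.91), where levels cannot be told from background. All 7 clock genes listed as having D-boxes were called (Rora on 1 of its 3 features), against 7.62% of all features. All 7 were already counted among the regulators above. Of the 6 with a promoter window searched here, only Per3 held the D-box letters. Without the high-Tff3 livers 6 of the 7 were called, against 5.88% of all features. Of the 6 related C/EBP factors 1, Cebpd, was called, against 7.62% of all features and 13.6% of those brighter than the median. Cebpd lost its call without the high-Tff3 livers. For any difference among the 6 times 2 of them were called, Cebpd and Ddit3 (the brighter of 2 features), against 6.14% of all features.

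**Figure D4:**
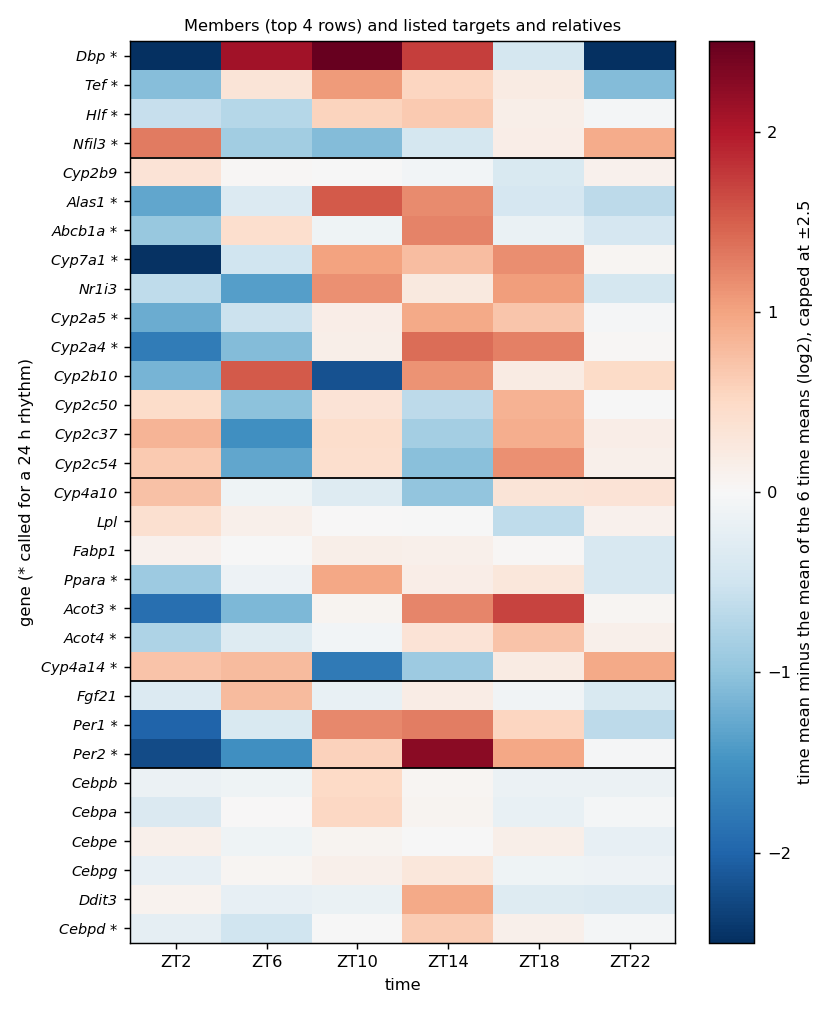
Time means of the genes in the listed groups, each as the log2 difference from the gene's own mean over the 6 times, with times along the horizontal axis from ZT2 to ZT22. The called drug metabolism genes are highest between ZT10 and ZT18, and Cyp4a14 is highest at ZT22.

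Over the 22 arrays Dbp correlated with Tef (Pearson r = 0.901), Hlf (0.467) and Nfil3 (-0.957), and Nfil3 with Tef (-0.849) and Hlf (-0.396). With the 4 members left out, the genes most like Dbp were Gne (0.904), Ciart (0.888) and Upp2 (0.886), and the most opposed were Pnp (-0.963) and Arntl (-0.94). Tef was most like Per3 (0.89), Ciart (0.873) and Adarb1 (0.87), and Hlf most like Marveld1 (0.88), Dgat2 (0.855) and Map2k3 (0.852). Nfil3 was most like Pnp (0.927), Pnrc1 (0.916) and Rfxank (0.911) and most opposed to Ap3m1 (-0.87) and Gne (-0.865). These rankings describe 18537 genes that share the same arrays and times. Of 1690 other rhythmic features, 86 (5.09%) peaked within 1 h of Dbp, 98 (5.8%) of Tef, 149 (8.82%) of Hlf and 190 (11.2%) of Nfil3.

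Hepatocyte markers were high on every array (list mean 18.07 to 18.41). Nfil3 is also made in NK cells and lymphocytes, whose 7 measured markers had a list mean of 4.10 to 5.06. The list mean of 5 sinusoidal endothelial markers was 9.10 to 9.35 at ZT22, against 8.35 to 8.85 at ZT14. At ZT2, where the mean of Nfil3 was highest, the list mean was 8.93 to 9.05, which overlapped ZT6 and ZT18. Of the 5 markers Stab2 was called for a 24 h rhythm with a peak at ZT23.3 (limma, adjusted p = 0.0353). Clec4g, Kdr and Pecam1, which were not called, had fitted peaks at ZT22.2, ZT23.5 and ZT23.5, near that of Nfil3. Lyve1, also not called, had its fitted peak at ZT18.8. The part of these cells in the values of Nfil3 was not tested. In whole liver, fewer cells of a type and less RNA per cell cannot be told apart.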

How the data were processed

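Expression was measured on Clariom S mouse arrays from 100 ng of TRIzol-extracted liver RNA, labelled with biotin (WT Plus kit), per the labels' protocols. The deposited values are log2 expression per feature; the base is not stated and was read as log2 from the range of the values. Background correction, summarization, normalization, software and build were not given in the sources used here. Arrays have no read depth, so their number (22) limits the precision, and the deposited values came with no detection calls. Each array was taken as 1 mouse, so p-values reflect only how these samples spread.

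Models were fitted with limma 3.58.1 in R 4.3.3 with data.table (version 1.17.8) to all 22206 features and adjusted by the Benjamini-Hochberg method with a threshold of 0.05. The tests were a 24 h cosine and sine, 12 h terms added to it, an F test among the 6 times, and differences of 2 times from 1 model of the time means. Fold spans are 2 raised to the doubled amplitude. Fits were tested on simulated data. Gene positions and promoters come from RefSeq (GRCm38.p6), where 36 of 46 genes looked up had a window.

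The named genes were the 4 members, the 3 most alike genes each (with the 2 most opposed for Dbp and Nfil3), and up to 4 genes of lowest adjusted p per list plus direct regulators. The members and lists were chosen with earlier results of these data known. Alternatives were scaling, ranks, filters, weights, priors, a replicate block, 2 times alone and each array left out. Leaving out the 5 high-Tff3 arrays was chosen after seeing the data. The letters of the arrays were not taken as pairing them: of 51 same-letter pairs 3 had residual correlations above 0.1.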

Additional observations from a re-analysis of the deposited data

How the results depend on the processing

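The 24 h call and the call among times held for all 4 members under every alternative that gave a value, as did the 12 h call of Dbp; with only features above the median level Tef gave no value. The number of features called for a 24 h rhythm was 1691, against 1065 on ranks and 830 at a threshold of 0.01. The number called for a 12 h component was 4, against 10 with a trend and robust prior, 15 with array weights, 10 without the high-Tff3 arrays, 1 with the replicate letter as a replicate block, and 2 to 16 with each array left out. The replicate block ended the call of Nfil3 between ZT18 and ZT6 (1.03, limma adjusted p = 0.0532) and changed no other call of a member.

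Without the 5 high-Tff3 arrays, 1 array remains at ZT6 and is assumed to vary like the other groups. The log2 difference of ZT6 minus ZT2 was then 2.47 for Tef (called) and 0.14 for Hlf (sign turned). That of ZT10 minus ZT6 was 1.30 for Dbp and 0.995 for Hlf (both lost) and -0.33 for Tef (sign turned), that of ZT2 minus ZT22 was -0.0708 for Tef (sign turned), and that of ZT18 minus ZT6 was 1.02 for Nfil3 (lost). The change of Tef minus that of Hlf, ZT14 minus ZT2, was -0.21. Peaks then lay 0.12 h (Tef after Dbp), 2.65 h (Hlf after Dbp), 12.2 h (Nfil3 after Dbp), 12.1 h (Nfil3 after Tef) and 9.55 h (Nfil3 after Hlf) apart. The cause was not tested.

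With the 2 times fitted alone, fewer samples enter: ZT10 minus ZT6 was 2.33 for Dbp and 1.27 for Hlf, and ZT18 minus ZT6 was -2.54 for Dbp and 1.03 for Nfil3, all uncalled, while ZT22 minus ZT18 of Tef was -1.29 and called. Array weights also called it (-1.24). The trend and robust prior called ZT6 minus ZT2 of Tef (1.38), and the filter on the median called ZT18 minus ZT6 of Hlf (0.87). ZT2 minus ZT22 of Tef turned to -0.0523 after quantile normalization and to -0.0692 with array weights.

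With each array left out in turn, ZT6 minus ZT2 ran from 0.84 to 1.78 for Tef and from -0.28 to 0.12 for Hlf. ZT10 minus ZT6 ran from 1.60 to 2.85 for Dbp, 0.36 to 1.29 for Tef and 1.01 to 1.41 for Hlf. ZT14 minus ZT10 of Hlf ran from -0.085 to 0.26, ZT18 minus ZT14 of Dbp from -2.29 to -1.92, ZT22 minus ZT18 of Tef from -1.41 to -1.20 and ZT2 minus ZT22 of Tef from -0.0708 to 0.14. ZT18 minus ZT6 ran from -0.50 to 0.43 for Tef and from 0.83 to 1.16 for Nfil3. The number of features called ran from 29 to 117 for ZT6 minus ZT2 (87 with all arrays), 62 to 315 for ZT10 minus ZT6 (142), 188 to 469 for ZT14 minus ZT10 (381), 24 to 219 for ZT18 minus ZT14 (121), 7 to 30 for ZT22 minus ZT18 (18), 15 to 44 for ZT2 minus ZT22 (29), 589 to 1018 for ZT14 minus ZT2 (948) and 82 to 440 for ZT18 minus ZT6 (252).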
